A study of Homo sapiens with 6 samples.

Results

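The genes described are the platelet-derived growth factor (PDGF) ligands and receptors, PDGFA, PDGFB, PDGFC, PDGFD, PDGFRA and PDGFRB. They were chosen by symbol, with earlier results of these data known, and all 6 were found once each among the 20332 genes of the table. The samples were LX-2 cells, an established immortal line of human hepatic stellate cells. In 3 samples TGF-β1 was given together with compound 11 at 10 µM, and in 3 samples together with the solvent DMSO, for 48 h. Both groups therefore carried TGF-β1, and there is no comparison with cells lacking it. Compound 11 is known here by its number alone, and the series title names inhibition of PI3K-AKT signalling as its action, a pathway that PDGF receptors feed. LX-2 cells are 1 line grown in dishes, without the endothelial cells, macrophages and hepatocytes that surround stellate cells in liver.

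PDGF chains are secreted as dimers joined by disulphide bonds, and each dimer draws 2 receptor tyrosine kinases together so that they phosphorylate one another and recruit PI3K, phospholipase C gamma, Src kinases and the Ras pathway. The alpha receptor binds the A, B and C chains, and the beta receptor binds the B and D chains. The C and D chains leave the cell in a latent form, and a protease has to cut off an inhibitory domain before they can bind. In injured liver, stellate cells gain the beta receptor as they become myofibroblasts, and PDGF is the strongest known mitogen for them.

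With compound 11 the transcript of the beta receptor, PDGFRB, was 2.71-fold lower and that of the most abundant ligand, PDGFC, 1.48-fold lower, and the ligand PDGFB was 2.27-fold higher. These are ratios of mean TPM (transcripts per 1000000, a level scaled for transcript length and library total). PDGFA averaged 18.3 ± 4.33 TPM with compound 11 and 21.7 ± 1.83 TPM with DMSO, and PDGFD 1.21 ± 0.278 TPM with compound 11 and 1.07 ± 0.148 TPM with DMSO (SD, n = 3 each); neither passed the test. PDGFRA stayed below 1 TPM in every library and was not tested. In limma with Benjamini-Hochberg adjustment over the 12067 genes tested, at a threshold of 0.05, 1 of the 5 tested members rose, where 25.3% of all tested genes rose, and 2 fell, where 24.3% fell. In either direction 3 of 5 were called, where 49.6% of all tested genes were. The count of members called is therefore not a result about the family, and what follows rests on the single genes. In bulk RNA, fewer cells of a kind and less RNA per cell cannot be told apart.

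**Figure D1:**
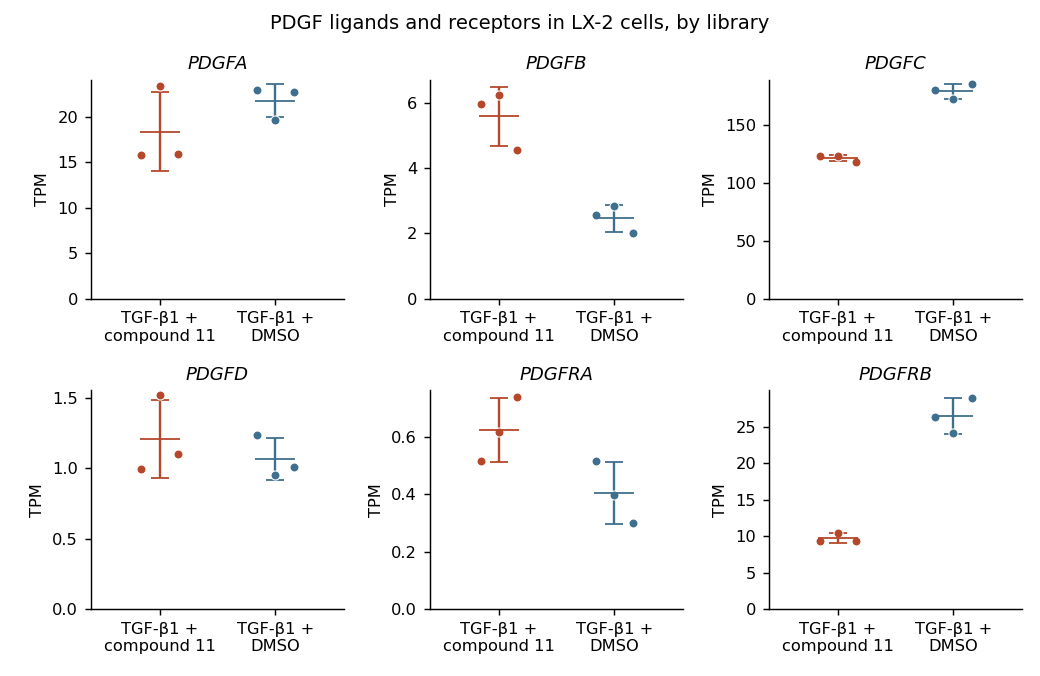
Level of each PDGF ligand and receptor in TPM (vertical axes, each starting at 0) in cells given TGF-β1 with compound 11 (left) or with DMSO (right). Points are single libraries, the long bar is the mean of 3 libraries and the error bar the SD; the groups stand apart for PDGFB, PDGFC and PDGFRB, and overlap or touch for PDGFA, PDGFD and PDGFRA.

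The beta receptor is the member with the smallest p-value, and the promoter window just upstream of its start is shown because it holds a CCAAT box, the element bound by the trimeric factor NF-Y. The PDGFA promoter window is shown beside it because it holds both a TATAA match and overlapping GC-rich elements. EGR1, SP1 and WT1 are known to bind such GC-rich elements. Of the 6 members, 4 matched 8 promoter windows in RefSeq (GRCh38.p14), with 4 windows for PDGFA, 2 for PDGFRA, 1 for PDGFD and 1 for PDGFRB; PDGFB and PDGFC are named only. The stretch of PDGFRB is chr5:150155873-150156095 and that of PDGFA chr7:519847-519959, both on the minus strand and written 5′ to 3′. The PDGFRB stretch lies just outside the gene as GENCODE v29 annotates it, and the PDGFA stretch lies within the annotated gene, outside its exons, just upstream of a RefSeq start site. Capitals mark CCAAT and the complement of GGGCGG in PDGFRB, and GCGGGGGCG and TATAA in PDGFA.
PDGFRB: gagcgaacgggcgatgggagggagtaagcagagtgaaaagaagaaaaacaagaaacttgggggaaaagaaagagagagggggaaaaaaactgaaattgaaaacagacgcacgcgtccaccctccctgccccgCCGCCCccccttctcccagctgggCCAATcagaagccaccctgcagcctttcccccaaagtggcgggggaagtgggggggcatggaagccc
PDGFA: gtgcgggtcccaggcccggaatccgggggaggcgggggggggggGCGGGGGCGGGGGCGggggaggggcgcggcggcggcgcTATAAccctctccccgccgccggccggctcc
The CCAAT of PDGFRB lies on the gene's strand and begins 94 bases before the RefSeq start site, and its GC box, GGGCGG on the other strand, begins 118 bases before it. That start site lies within the gene as GENCODE v29 annotates it, so both distances run past the end of the printed stretch. In PDGFA the 2 matches of GCGGGGGCG overlap each other and begin 69 and 63 bases before the start site, they overlap matches of GGGCGG, and TATAA begins 31 bases before it. CCAAT is not particular to PDGFRB among the members. It also occurs in 1 of the 4 PDGFA windows, not that shown, and in 1 of the 2 PDGFRA windows. Nor is GCGGGGGCG particular to the PDGFA window shown, since another PDGFA window also has 2 matches. On either strand of the 250 bases upstream, CCAAT was present in 32.0% of 34796 distinct RefSeq windows, GGGCGG in 42.6%, GCGGGGGCG in 4.72% and TATAA in 19.0%. The stretch of PDGFA has 85.8% G or C and that of PDGFRB 58.3%. A match of these letters is a description of the window and does not show that a factor bound there.

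PDGFRB (ENSG00000113721) is a protein-coding gene on chromosome 5 at 150113837 to 150155872 (GRCh38, GENCODE v29), with 11 annotated transcripts of which 3 are coding. It encodes the receptor of stellate cells for PDGF-BB and PDGF-DD. Its level was 9.38, 10.5 and 9.38 TPM in the compound 11 libraries, and 26.3, 24.1 and 28.9 TPM in the DMSO libraries. The highest compound 11 library lay far below the lowest DMSO library. The log2 fold change on the log2(TPM + 1) scale was -1.35 ± 0.09 (SE; adjusted p = 2.54e-06 in limma; lower in 3 of 3 libraries). By p-value PDGFRB ranked 565th among the tested genes. Among all listed genes its mean level stood at percentile 55.8 with compound 11 and at percentile 70.4 with DMSO.

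PDGFRA (ENSG00000134853), the alpha receptor, lies on chromosome 4 at 54229097 to 54298247. It was at 0.516, 0.616 and 0.739 TPM in the compound 11 libraries, and at 0.516, 0.399 and 0.301 TPM in the DMSO libraries. The lowest compound 11 library equals the highest DMSO library, so the groups touch. With 0 of 6 libraries at 1 TPM, it did not pass the filter on low values (at least 1 TPM in at least 3 libraries). With no filter its log2 fold change was 0.21 (95% interval 0.00 to 0.41; adjusted p = 0.111 in limma), a fit in which 17.9% of 16532 genes rose and 17.2% fell. An exact two-sided permutation test over the 6 libraries gave p = 0.2, and the smallest that 3 against 3 allow is 0.1. Another protein-coding gene model, AC058822.1, overlaps PDGFRA on the same strand and is in the table as well, at 0.464, 0.364 and 1.09 TPM with compound 11 and 0.137, 0.366 and 0.534 TPM with DMSO. How the authors' counting divided reads between the overlapping models is not given in the sources used here, so the level of PDGFRA is uncertain.

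The beta receptor made up nearly all of the receptor transcripts in both groups. PDGFRB took 92.7% to 94.8% of the summed receptor level in the compound 11 libraries and 98.1% to 99.0% in the DMSO libraries, without overlap. The ratio of PDGFRB to PDGFRA was 12.7 to 18.2 with compound 11 and 51.0 to 96.1 with DMSO. The denominator was under 1 TPM in all 6 libraries. The summed level of the 2 receptors was 10.4 ± 0.651 TPM with compound 11 and 26.9 ± 2.38 TPM with DMSO (SD, n = 3 each).

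PDGFC (ENSG00000145431), a latent ligand of the alpha receptor that forms PDGF-CC, spans chromosome 4 at 156760454 to 156971394. It was the most abundant member in every library. Its level was 123, 123 and 118 TPM with compound 11, and 180, 172 and 185 TPM with DMSO. All 3 compound 11 libraries lay below all 3 DMSO libraries, and the libraries of each group were close together. The log2 fold change was -0.56 ± 0.04 (SE; adjusted p = 5.34e-06 in limma). Its mean level stood at percentile 92.5 of the listed genes with compound 11 and at percentile 95.2 with DMSO.

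PDGFB (ENSG00000100311), the chain of PDGF-BB and a ligand of both receptors, lies on chromosome 22 at 39223359 to 39244751. It was at 5.96, 6.24 and 4.56 TPM in the compound 11 libraries, and at 2.56, 2.83 and 2.01 TPM in the DMSO libraries. The groups did not overlap. Of the 5 tested members 3 had groups without overlap, 1 higher and 2 lower, where 57.8% of all tested genes did, 29.3% higher and 28.4% lower. The log2 fold change was 0.92 ± 0.15 (SE; adjusted p = 0.000769 in limma; higher in 3 of 3 libraries). The added 1 TPM shrinks the change of so low a gene, and with 0.1 TPM added the log2 fold change was 1.15.

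In tissue, PDGFB is made by endothelial cells, platelets and macrophages, so markers of those cells are given beside it. Of 7 endothelial markers 3 were tested, and all of them, KDR, PECAM1 and TEK, rose, where 25.3% of all tested genes rose and 24.3% fell. The other 4 were below 1 TPM in every library. PECAM1 passed the filter only through the compound 11 libraries. KDR was at 4.57 ± 0.297 TPM with compound 11 and 1.11 ± 0.196 TPM with DMSO, and PECAM1 at 2.77 ± 0.345 TPM with compound 11 and 0.518 ± 0.136 TPM with DMSO (SD, n = 3 each). The summed endothelial level was 10.4 to 12.3 TPM with compound 11 and 3.38 to 3.88 TPM with DMSO. CDH5 did not exceed 0.153 TPM and VWF 0.427 TPM in any library, and LYVE1 was listed at 0 in all 6. The 7 macrophage markers, mostly CD68 by level, summed to 138 to 155 TPM with compound 11 and 86.6 to 89.5 TPM with DMSO. Of the 3 tested 2 rose, beside the same 25.3% of all tested genes. These were CD68, at 141 ± 8.89 TPM with compound 11 and 82.2 ± 1.40 TPM with DMSO, and CSF1R, at 5.09 ± 0.287 TPM with compound 11 and 3.24 ± 0.447 TPM with DMSO (SD, n = 3 each). CD14, also tested and named after its values were seen, did not pass (log2 fold change -0.30, adjusted p = 0.124 in limma). PTPRC did not exceed 0.426 TPM and CD163 0.155 TPM in any library. The 5 platelet markers summed to 1.54 to 3.37 TPM with compound 11 and 1.58 to 2.04 TPM with DMSO. By their label the samples held LX-2 cells alone, so these are levels of marker transcripts in that line and not a measure of such cells. Whether these transcripts bear on the level of PDGFB was not tested.

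PDGFA (ENSG00000197461), the chain of PDGF-AA and a ligand of the alpha receptor, lies on chromosome 7 at 497258 to 520296. Its level was 15.7, 23.3 and 15.9 TPM with compound 11, and 22.9, 19.6 and 22.6 TPM with DMSO. Replicates 1 and 3 of compound 11 lay below all DMSO libraries, and replicate 2 was the highest of the 6. The log2 fold change was -0.25 ± 0.14 (SE; 95% interval -0.57 to 0.07; adjusted p = 0.17 in limma). Without compound 11 replicate 2 it was -0.43 and passed the threshold (adjusted p = 0.00574 in limma), so that library decides the call. PDGFA is known to be spliced into a short chain and a long chain with a basic tail that holds it at the cell surface, and the table, with 1 value per gene, does not separate them.

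PDGFD (ENSG00000170962), the latent ligand of the beta receptor, spans chromosome 11 at 103907186 to 104164379. It was at 0.999, 1.52 and 1.10 TPM with compound 11, and at 1.24, 0.955 and 1.01 TPM with DMSO, and the groups overlapped. It passed the filter with 4 libraries at 1 TPM or more. The log2 fold change was 0.09 ± 0.16 (SE; 95% interval -0.27 to 0.45; adjusted p = 0.668 in limma), and without compound 11 replicate 2 it was -0.010.

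**Figure D2:**
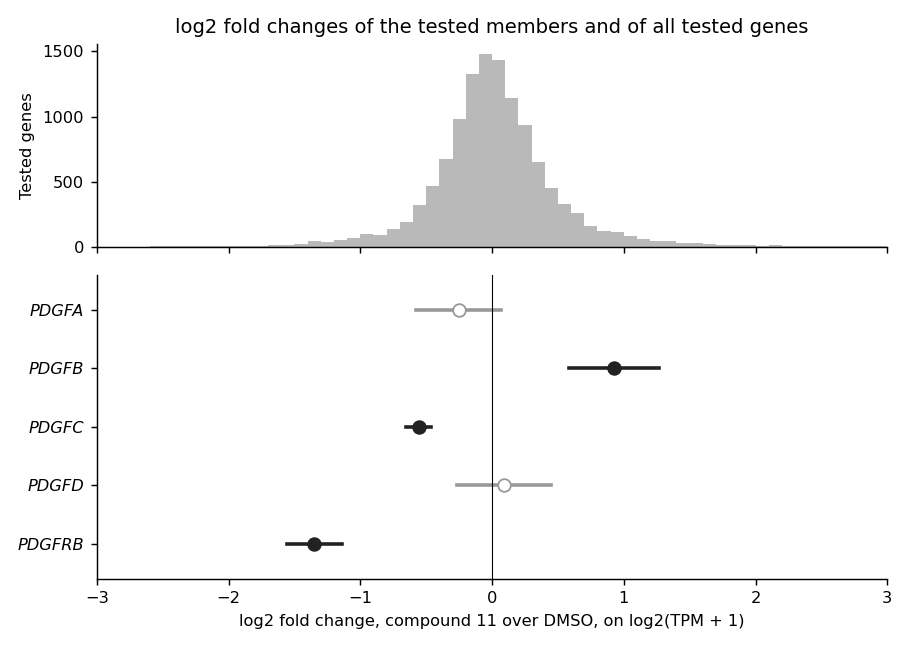
Upper panel, number of tested genes by log2 fold change of compound 11 over DMSO, on log2(TPM + 1) in steps of 0.1 (33 genes beyond 3 in either direction lie off the axis). Lower panel, the 5 tested members with their 95% interval, filled where the adjusted p was under 0.05; PDGFB lies above 0, PDGFC and PDGFRB below it, and the intervals of PDGFA and PDGFD cross 0.

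By level, the order of the members with DMSO was PDGFC, PDGFRB, PDGFA, PDGFB, PDGFD and PDGFRA. With compound 11, PDGFA stood above PDGFRB. The headers name FPKM and each column sums to 1000000, so the values are taken as scaled for length. On that reading members can be set side by side. With DMSO the levels of PDGFRB and PDGFA, neighbours in this order, did not overlap, at 24.1 to 28.9 TPM and 19.6 to 22.9 TPM. With compound 11, PDGFA at 15.7 to 23.3 TPM lay above PDGFRB at 9.38 to 10.5 TPM, again without overlap. No neighbours in either order had libraries that overlapped. The lowest pair, PDGFD and PDGFRA, lay at 0.999 to 1.52 TPM and 0.516 to 0.739 TPM with compound 11.

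PDGFC dominated the ligand transcripts. It took 79.8% to 84.5% of the summed ligand level with compound 11 and 87.1% to 88.0% with DMSO, and these ranges did not overlap. PDGFB took 3.27% to 4.09% with compound 11 and 0.953% to 1.45% with DMSO. The summed level of the 4 ligands was 147 ± 7.34 TPM with compound 11 and 204 ± 7.83 TPM with DMSO (SD, n = 3 each). For the beta receptor's own ligands, PDGFB and PDGFD together, the sum was 5.66 to 7.76 TPM with compound 11 and 3.02 to 3.79 TPM with DMSO. The ratio of PDGFB to PDGFRB was 0.487 to 0.636 with compound 11 and 0.0694 to 0.117 with DMSO; both genes differ between the groups. The ratio of PDGFC to PDGFRB was 11.7 to 13.1 with compound 11 and 6.40 to 7.15 with DMSO.

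**Figure D3:**
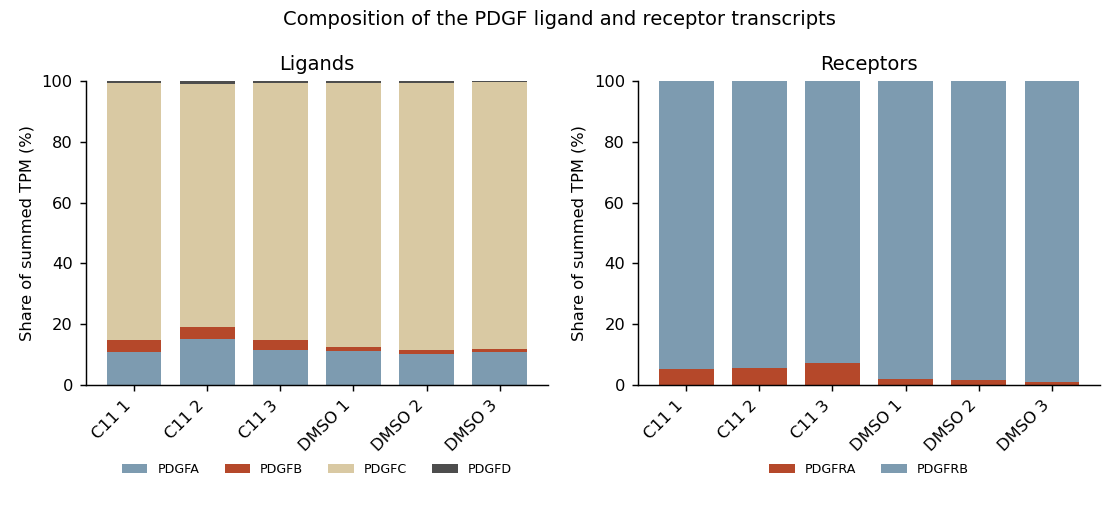
Share of the summed TPM of the 4 ligands (left) and the 2 receptors (right) in percent, 1 bar per library, with the compound 11 libraries (C11) left of the DMSO libraries. PDGFC and PDGFRB fill most of every bar, and the shares of PDGFB and PDGFRA are larger in the compound 11 libraries.

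The genes that release and hold the ligands moved in both directions. Of 9 tested on that list of 13, 3 rose and 6 fell, where 25.3% of all tested genes rose and 24.3% fell, with a median log2 fold change of -0.31 beside -0.0013 over all tested genes. PLAT, tissue plasminogen activator, which cuts latent PDGF-CC, fell to 103 ± 4.64 TPM with compound 11, against 169 ± 5.67 TPM with DMSO. PLAU, urokinase, which cuts latent PDGF-DD, rose to 51.2 ± 4.42 TPM with compound 11, against 24.6 ± 2.21 TPM with DMSO (SD, n = 3 each). Their log2 fold changes were -0.70 and 1.03 (adjusted p = 2.24e-06 and 9.88e-06 in limma). PLAT over PLAU was 1.82 to 2.32 with compound 11 and 6.46 to 7.13 with DMSO.

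SERPINE2, an inhibitor of serine proteases, was 1.43-fold lower. FURIN, a convertase that processes the A and B chains, was 1.20-fold higher, and PCSK7, a related convertase, 1.26-fold lower. The call of PCSK7 was lost without DMSO replicate 3 or without compound 11 replicate 1 (adjusted p = 0.08 and 0.0855 in limma). NRP1, a co-receptor, rose to 258 ± 26.2 TPM with compound 11, against 127 ± 12.7 TPM with DMSO, and LRP1, a large endocytic receptor that associates with the beta receptor, was 1.43-fold lower. SPARC, a matrix protein that binds PDGF-BB, was 4.99-fold lower.

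Among the adaptors and effectors of PDGF receptors, 14 of 35 tested rose and 7 fell, with a median log2 fold change of 0.16. Over all tested genes 25.3% rose and 24.3% fell. GAB2, a docking protein for PI3K, was 2.04-fold higher, and the Src family kinases FYN and YES1 were 1.67-fold and 1.48-fold higher. RASA1, the Ras GTPase-activating protein that docks on the beta receptor, rose to 149 ± 5.09 TPM with compound 11, against 99.7 ± 4.45 TPM with DMSO (SD, n = 3 each). NCK2, an adaptor to the actin cytoskeleton, was 1.55-fold higher and AKT2, a kinase downstream of PI3K, 1.32-fold lower. AKT1, at 153 ± 8.92 TPM with compound 11 and 160 ± 3.94 TPM with DMSO, did not pass.

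Of 19 tested negative regulators of the receptors, on a list of 23 names, 12 rose and 3 fell. These are 63.2% and 15.8%, where 25.3% of all tested genes rose and 24.3% fell. Their median log2 fold change was 0.33. SPRY2, a Sprouty protein that restrains receptor signalling to Ras, was at 138, 143 and 144 TPM with compound 11, and at 19.8, 20.3 and 21.6 TPM with DMSO (log2 fold change 2.73 ± 0.05 SE; adjusted p = 8.39e-10 in limma). SPRY4, of the same family, was 3.28-fold higher. CBLB, a ubiquitin ligase of activated receptors, rose to 99.9 ± 11.3 TPM with compound 11, against 32.7 ± 4.26 TPM with DMSO. SH2B3, an adaptor that restrains receptor signalling, was 3.72-fold higher, PTPN12, a tyrosine phosphatase, 1.99-fold and SPRED1, an inhibitor of Raf activation, 1.99-fold. Among the 3 that fell were the phosphatase PTPRJ and SOCS1, named after their values were seen, with log2 fold changes of -0.52 and -0.81. SOCS1 reached 1 TPM in 1 compound 11 library and in all 3 DMSO libraries, so it passed the filter through the group where it was higher. INPPL1, a lipid phosphatase, did not pass (log2 fold change 0.069; adjusted p = 0.338 in limma).

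Of 21 tested genes that PDGF is known to induce early, 13 rose and 6 fell, where 25.3% of all tested genes rose and 24.3% fell. The median log2 fold change was 0.61. DUSP6, a phosphatase of ERK, was at 139, 133 and 148 TPM with compound 11, and at 16.2, 20.5 and 20.4 TPM with DMSO (log2 fold change 2.82 ± 0.09 SE; adjusted p = 1.39e-08 in limma). NR4A1, an orphan nuclear receptor, was 4.83-fold higher, IER3 2.85-fold, ODC1, an enzyme of polyamine synthesis, 2.57-fold, FOSL1, an AP-1 subunit, 2.54-fold and CCND1, a G1 cyclin, 1.70-fold. MYC was at 126 ± 6.50 TPM with compound 11 and 115 ± 5.55 TPM with DMSO and did not pass (adjusted p = 0.0665 in limma). It passed under quantile normalization, without the 20 most abundant genes and without compound 11 replicate 2, with adjusted p of 0.0252, 0.0316 and 0.0475 in limma. The 6 that fell were ATF3, EGR2, KLF10, DUSP1, JUN and SRF, named after their values were seen, with log2 fold changes of -0.78, -0.71, -0.50, -0.34, -0.25 and -0.18. Many growth factors besides PDGF induce these genes.

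**Figure D4:**
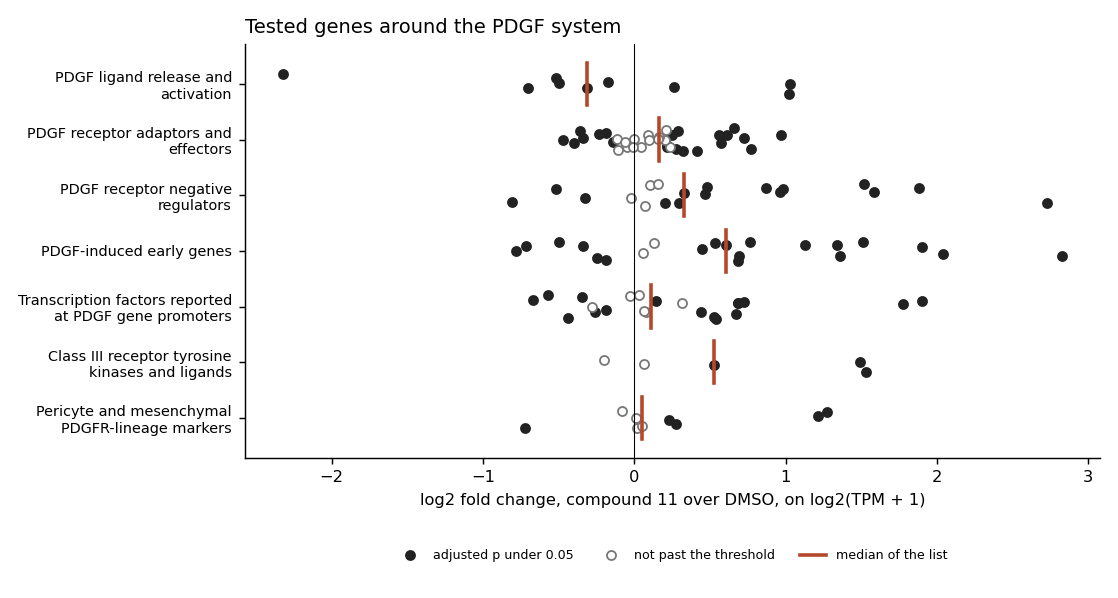
log2 fold change of compound 11 over DMSO (horizontal axis, on log2(TPM + 1)) for the tested genes of 7 lists around the PDGF system, with filled points where the adjusted p was under 0.05 and a bar at the median of each list. The medians run from -0.31 for ligand release and activation to 0.61 for early genes.

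Of 22 tested transcription factors reported at PDGF gene promoters, 10 rose and 6 fell, 45.5% and 27.3%, where 25.3% of all tested genes rose and 24.3% fell. The median log2 fold change was 0.11. EGR1, which binds GC-rich elements such as those in capitals in the PDGFA window, rose to 61.7 ± 2.84 TPM with compound 11, against 15.9 ± 1.85 TPM with DMSO (SD, n = 3 each). KLF5 was 1.75-fold and WT1 1.40-fold higher. SP1 was at 47.5 ± 1.05 TPM with compound 11 and 46.4 ± 2.23 TPM with DMSO. It did not pass (log2 fold change 0.034, adjusted p = 0.65 in limma). WT1 and SP1 were named after their values were seen. CEBPB was 3.48-fold, FOXC2 1.64-fold and ETS1 1.46-fold higher, and SMAD3, a mediator of TGF-β signals, 1.36-fold lower. SP3 did not pass (log2 fold change 0.075; adjusted p = 0.284 in limma).

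The subunits of NF-Y, the factor of the CCAAT box shown for PDGFRB, were named after their values were seen. NFYA, which contacts the CCAAT letters, was at 27.6 ± 3.43 TPM with compound 11 and 41.3 ± 4.18 TPM with DMSO (log2 fold change -0.57 ± 0.10 SE; adjusted p = 0.0012 in limma). NFYB was 1.20-fold lower (log2 fold change -0.26; adjusted p = 0.00652 in limma). NFYC was at 38.8 ± 0.91 TPM with compound 11 and 37.3 ± 4.41 TPM with DMSO and did not pass. Whether NF-Y has a part in the level of PDGFRB was not tested.

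PDGF receptors belong to the class III receptor tyrosine kinases. Of 5 tested genes of the other receptors of this class, their ligands and the receptor-like PDGFRL, 3 rose and 0 fell, where 25.3% of all tested genes rose and 24.3% fell. The median log2 fold change was 0.52. The receptor KIT did not pass the filter, at 0.396 ± 0.164 TPM with compound 11 and 1.10 ± 0.506 TPM with DMSO (SD, n = 3 each). With no filter KIT was called lower, in a fit where 17.2% of 16532 genes fell. KITLG, the ligand of KIT, rose to 25.4 ± 0.883 TPM with compound 11, against 8.12 ± 0.314 TPM with DMSO, and CSF1, the ligand of CSF1R, to 45.2 ± 1.32 TPM with compound 11, against 15.5 ± 1.54 TPM with DMSO (SD, n = 3 each). CSF1R was 1.57-fold higher. PDGFRL was at 3.24, 3.25 and 4.24 TPM with compound 11, and at 3.61, 6.94 and 2.92 TPM with DMSO, and did not pass (adjusted p = 0.518 in limma). FLT3LG did not pass either (log2 fold change 0.063; adjusted p = 0.817 in limma).

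The nearest protein-coding genes in the table that do not overlap a member were named after their values were seen. Of those that overlap, AC058822.1 is given above with PDGFRA, and DDI1, within PDGFD on the other strand, was at 0.06 TPM in compound 11 replicate 3 and listed at 0 in the other 5 libraries. CSF1R lies 0.465 kb beyond the 3′ end of PDGFRB on the same strand, and the pair moved in opposite directions. KIT, 360 kb from PDGFRA, was at 0.396 ± 0.164 TPM with compound 11 and 1.10 ± 0.506 TPM with DMSO and was not tested. CBX7, a Polycomb protein gene 70.7 kb from PDGFB, was at 12.8 ± 1.40 TPM with compound 11 and 6.10 ± 0.673 TPM with DMSO (log2 fold change 0.96; adjusted p = 0.000119 in limma), whereas RPL3 on the other side of PDGFB had a log2 fold change of -0.016 and did not pass. CASP4, an inflammatory caspase gene 778 kb from PDGFD, was at 319 ± 4.28 TPM with compound 11 and 75.1 ± 3.83 TPM with DMSO. DYNC2H1, nearer at 427 kb on the other side of PDGFD, did not pass (log2 fold change 0.28, adjusted p = 0.219 in limma). PRKAR1B, 28.9 kb from PDGFA, did not pass either (log2 fold change -0.021, adjusted p = 0.941 in limma). The 2 neighbours of PDGFC, CTSO and GLRB, had log2 fold changes of 0.61 and 0.28, opposite in sign to that of PDGFC.

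The genes most like a member were taken by the root mean square difference of log2(TPM + 1) values centred on their mean over the 6 libraries. For PDGFRB they were CENPA, ARL15 and RHOJ, at differences of 0.0421, 0.0532 and 0.0773. For PDGFC they were TMEM14A, GPSM2 and C12orf4, at 0.021, 0.0237 and 0.0274. For PDGFB they were TTC29, DDIT3 and CARD8, at 0.0808, 0.0829 and 0.0846. For PDGFA they were TEDC2, AP3S2 and TTLL1, at 0.0661, 0.0673 and 0.0678, and for PDGFD FAAP24, RPL23A and USP20, at 0.0394, 0.0445 and 0.0465. CENPA, a centromeric histone, was at 21.2 TPM with compound 11 and 57.0 TPM with DMSO on average.

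The label of the cells was set against markers. Of 12 stellate cell markers 9 were tested, 2 rose and 6 fell, where 25.3% of all tested genes rose and 24.3% fell. Those that fell were ACTA2, COL1A1, COL1A2, COL3A1, LOX and SPARC, and TIMP1 and VIM rose, VIM with a log2 fold change of 0.23 that was -0.074 under quantile normalization. COL1A1, a chain of type I collagen, was at 102 ± 6.91 TPM with compound 11 and 1132 ± 30.9 TPM with DMSO, and TIMP1, an inhibitor of metalloproteinases, at 4980 ± 289 TPM with compound 11 and 756 ± 23.5 TPM with DMSO. COL1A2 passed the filter only through DMSO. VIM was the most abundant, at 7512 ± 106 TPM with compound 11 and 6400 ± 194 TPM with DMSO. DES was listed at 0 in all 6 libraries, and LRAT and HGF were below 1 TPM throughout. ACTA2, the actin of myofibroblasts, was at 6.28 ± 0.416 TPM with compound 11 and 176 ± 4.47 TPM with DMSO (SD, n = 3 each). Of 15 markers of pericytes and PDGF receptor-bearing mesenchyme, 9 were tested, 4 rose and 1 fell, where 25.3% of all tested genes rose and 24.3% fell. The median log2 fold change was 0.053. VIM, given above, is also on this list. NT5E and ANPEP were 2.43-fold and 2.41-fold higher, CSPG4, the NG2 proteoglycan, 1.22-fold higher, and THY1, which fell, was at 0.54 ± 0.253 TPM with compound 11 and 1.52 ± 0.068 TPM with DMSO. THY1 was under 1 TPM in all 3 compound 11 libraries and passed the filter only through DMSO, so its call could go in that direction alone. ENG did not pass. DCN was listed at 0 and LUM did not reach 0.1 TPM in any library.

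Of 9 hepatocyte markers, 8 were below 1 TPM in every library; SERPINA1 was the exception, at 21.8 ± 4.65 TPM with compound 11 and 3.73 ± 0.38 TPM with DMSO. All 6 lymphocyte markers were below 1 TPM. Of 5 cholangiocyte markers SOX9 was the highest, at 34.6 ± 1.31 TPM with compound 11 and 23.6 ± 1.02 TPM with DMSO, and rose, while KRT7 fell, at 2.45 ± 0.746 TPM with compound 11 and 3.92 ± 0.682 TPM with DMSO. Libraries correlated at 0.993 to 0.994 within groups and at 0.960 to 0.961 between them, across genes, which are not independent replicates. Whether the 3 libraries of a group came from different cultures is not stated, so the p-values cover the variation among these libraries, which may be technical only.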

How the data were processed

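RNA of LX-2 cells was extracted with TRIzol and sequenced from Illumina TruSeq libraries, per the labels' protocols, 3 libraries with compound 11 and 3 with DMSO. Bowtie 0.12.2, mm8 (a mouse build) and GRCh38.p12 are named, with no role, per the submitters' processing notes. The counter, annotation, strand use and filters were not given in the sources used here. In its headers the deposited table names FPKM, but each column of the authors sums to 1000000, so the deposited values are called TPM; no depth or counting error can be recovered from them. The design had assumed FPKM, and the same test was applied.

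Values were transformed as log2(TPM + 1), and the 12067 genes reaching 1 TPM in 3 or more libraries were tested on group with limma 3.58.1 in R 4.3.3 (mean trend, two-sided, Benjamini-Hochberg, threshold 0.05). SEs and intervals are limma's. Positions come from GENCODE v29 and promoter windows from RefSeq (GRCh38.p14). In simulated data on these 12067 genes with 200 changed, the test recovered 38% of 1.25-fold, 74% of 1.5-fold, 90% of 2-fold and 100% of 4-fold changes. These folds were set on the log2(TPM + 1) scale, so for genes of low level they are not ratios of TPM. Far fewer genes were changed there than the 49.6% called in the real data, so the recovered shares do not carry over to it.

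Named genes were all members, up to 6 past the threshold with the smallest adjusted p and the most abundant not past it per list, and the 3 most like each tested member. FURIN and PCSK7 were added after their values were seen. Some genes of the lists are counted but not reported here by name. The members and lists were chosen with earlier results of these data known. Alternatives were 2 pseudocounts, 2 filters, 3 scalings, no mean trend, a block on replicate number, and leaving out each library.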

Additional observations from a re-analysis of the deposited data

How the results depend on the processing

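PDGFB, PDGFC and PDGFRB kept their direction and their call in every alternative that gave them a value, with log2 fold changes of 0.83 to 1.18, -0.59 to -0.52 and -1.44 to -1.29. PDGFB has no value under a mean of at least 5 TPM, so that 0 members were called higher there. PDGFA passed only without compound 11 replicate 2; over the leave-one-out fits its log2 fold change ran from -0.43 to -0.16 and that of PDGFD, which never passed, from -0.010 to 0.16. With no filter 1 gene of the class III receptor list was called lower, KIT, and 2 genes of the pericyte list. In that fit 17.2% of all 16532 genes were called lower. Under a mean of at least 5 TPM 0 genes of the pericyte list were called lower, beside 2709 among all genes of that fit. Genes that did not pass and changed sign were AKT1, at 0.0045 under quantile normalization, and, over the leave-one-out fits, FLT3LG (-0.065 to 0.29), NFYC (-0.023 to 0.14) and PDGFRL (-0.41 to 0.10). VIM was at -0.074 under quantile normalization (adjusted p = 0.0863 in limma), and the cause was not tested. Across genes, deviations of same-numbered libraries from their group means correlated weakly and positively, at 0.0794, 0.149 and 0.0663. Whether same-numbered libraries share more than a number cannot be told from these values. With the replicate block 3172 genes were called higher and 3054 lower, against 3052 and 2932 without it. In this balanced design the block cannot move a fold change, which stays at -1.35 for PDGFRB, and it changed no call of a member. Counting error cannot be given for any member, since the depth is unknown.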
